A study of Mus musculus with 18 samples.

Results

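The secreted and membrane-bound cues that steer axons, with their receptors, were examined in the cerebellum of 3-week-old mice. The set held every gene with a protein-coding transcript whose symbol places it among the class 3 to 7 semaphorins, plexins, neuropilins, Eph receptors, ephrins, Robo receptors, Slits, Unc5 receptors, netrins 1 to 5 or *Dcc*. By this rule 69 genes were members, 35 of them ligands and 34 receptors, out of 54752 genes in the RNA table and 21904 with a protein-coding transcript. All 69 were also in the footprint table of 22523 genes. Semaphorins signal through plexins, with neuropilins as binding partners of most class 3 members, while ephrins bind Eph receptors, Slits bind Robo receptors, and netrins bind *Dcc* and the Unc5 family. In the cerebellum these families act in the migration of granule cell precursors and in the placing of axons and synapses.

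All mice were C57BL/6J (B6J), a strain homozygous for a mutation in *n-Tr20*, a brain tRNA that reads AGA codons. B6J.*Gtpbp1*-/- mice were congenic homozygotes for a targeted allele in which a neomycin cassette replaces part of the gene, and B6J-*Gtpbp2*-/- mice were homozygous for nmf205, a chemically induced null allele. Both genes encode GTPases related to translation factors, and the study asked how their loss affects neurons in this strain. Each group had 3 mice for RNA sequencing and 3 for ribosome footprints, with 1 cerebellum per footprint library. Comparisons of the 2 mutants with B6J shared the same B6J libraries, so their values are given side by side and are not independent. All RNA libraries belonged to Batch 1 and all footprint libraries to Batch 2, so assay and batch cannot be told apart. Whole tissue was measured, and fewer cells of a type and less RNA per cell cannot be told apart.

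RNA libraries held 37794598 to 52114400 counts and footprint libraries 3630823 to 10442573. Members were well sampled in RNA, with a median mean count of 1141 among those tested in B6J.*Gtpbp1*-/- against B6J, beside 236 over all genes tested. In footprints the median was 217, beside 162 over all genes. Values per library are CPM after TMM scaling unless marked as TPM, and levels of different genes are compared only in TPM. Gene positions are on GRCm38, and fold changes are on the log2 scale with standard errors, from the quasi-likelihood test of edgeR, and a gene was called at an adjusted p of at most 0.05.

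*Gtpbp1* RNA was 70.7, 77.6 and 66.5 CPM in B6J, 44.2, 41.7 and 43.8 in B6J.*Gtpbp1*-/- and 58.8, 72.3 and 65.8 in B6J-*Gtpbp2*-/- libraries. It was lower in every B6J.*Gtpbp1*-/- library than in any B6J library (-0.73 ± 0.08, adjusted p 5.94e-05), though its TPM values overlapped, with means of 40.8 and 36.9. Footprints on *Gtpbp1* were 73.9, 116 and 85.6 CPM in B6J, 31.7, 25.4 and 36.1 in B6J.*Gtpbp1*-/- and 79.3, 66.2 and 61.8 in B6J-*Gtpbp2*-/- libraries, a fall without overlap in B6J.*Gtpbp1*-/- (-1.57 ± 0.23, adjusted p 0.00676). *Gtpbp2* RNA was 85.6, 73.8 and 87.8 CPM in B6J, 109, 101 and 104 in B6J.*Gtpbp1*-/- and 65.6, 75.5 and 72.9 in B6J-*Gtpbp2*-/- libraries, so B6J-*Gtpbp2*-/- overlapped B6J (-0.22 ± 0.09, adjusted p 0.190), while it rose in B6J.*Gtpbp1*-/- (0.34 ± 0.08, adjusted p 0.0154). Its TPM ran the other way in B6J-*Gtpbp2*-/-, at 114, 91.7 and 99.0 TPM in B6J, 139, 160.0 and 162 in B6J.*Gtpbp1*-/- and 127, 145 and 151 in B6J-*Gtpbp2*-/- libraries, above B6J in every library of both mutants. *Gtpbp2* footprints, at 44.9, 36.0 and 38.8 CPM in B6J, 35.9, 43.1 and 59.2 in B6J.*Gtpbp1*-/- and 28.9, 26.2 and 7.51 in B6J-*Gtpbp2*-/- libraries, were lowest in B6J-*Gtpbp2*-/-, with no overlap with B6J but no call (-0.97 ± 0.44, adjusted p 0.321). The Y-linked gene *Ddx3y* marked RNA libraries B6J.*Gtpbp1*-/- replicates 1 and 2 and B6J replicate 2 as male, and footprint libraries B6J.*Gtpbp1*-/- replicate 1 and B6J replicates 1 and 2. Every B6J-*Gtpbp2*-/- library was read as female.

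Markers of cerebellar cells were present in every library, with granule neuron markers summing to 3749, 3796 and 3825 TPM in B6J, 2527, 2464 and 2849.7 in B6J.*Gtpbp1*-/- and 2628, 2858 and 2445 in B6J-*Gtpbp2*-/- libraries. Of these 8 genes 7 were called lower in B6J.*Gtpbp1*-/- and 6 in B6J-*Gtpbp2*-/-, and *Gabra6* was the most abundant (890.2 TPM in B6J). Purkinje cell markers (*Pcp2* the most abundant) summed to 6330.1, 6659 and 5375 TPM in B6J, 6202, 5180.0 and 6655 in B6J.*Gtpbp1*-/- and 5226, 5603 and 4623 in B6J-*Gtpbp2*-/- libraries, with 2 and 4 of 8 called lower. None of the 4 choroid plexus markers was called, but their sum ran from 128 TPM in B6J-*Gtpbp2*-/- replicate 1 to 3707 in B6J.*Gtpbp1*-/- replicate 1, with *Ttr* the most abundant. Markers of meningeal fibroblasts (0 of 5) and skeletal muscle (0 of 4) were not called in either mutant. Nor were those of granule progenitors and proliferation (0 of 4 tested), where *Atoh1* was at 0 in 7 of 9 RNA libraries. In blood 1 of 3 markers was called higher in B6J.*Gtpbp1*-/- and 0 in B6J-*Gtpbp2*-/-. Astrocyte and Bergmann glia markers had 1 higher and 3 lower of 7 in both mutants. Unipolar brush cell markers, with *Calb2* the most abundant, summed to 727, 865 and 894 TPM in B6J, 1317, 1181 and 1272 in B6J.*Gtpbp1*-/- and 1267, 1356 and 1124 in B6J-*Gtpbp2*-/- libraries, above B6J in every mutant library, with 1 higher and 1 lower of 4 in both. Inhibitory interneuron markers had 1 higher and 1 lower of 6 in B6J.*Gtpbp1*-/- and 1 and 3 in B6J-*Gtpbp2*-/-, while oligodendrocyte precursor markers, led by *Gpr17*, had 0 and 1 higher of 4. The precursor sum, 42.6, 41.5 and 41.6 TPM in B6J, 48.0, 55.2 and 45.1 in B6J.*Gtpbp1*-/- and 58.4, 56.0 and 53.6 in B6J-*Gtpbp2*-/- libraries, was also above B6J in every mutant library.

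In B6J, 64 of the 69 members had a mean of at least 1 TPM, 36 at least 10 TPM and 4 at least 50 TPM. The most abundant were *Sema4d* (88.9 ± 3.79 TPM, mean ± SD, n = 3), which signals through plexin-B1, and *Sema7a* (69.5 ± 7.43), a lipid-anchored semaphorin. They were followed by *Plxnb2* (61.6 ± 2.60), a receptor for class 4 semaphorins, and *Sema6d* (57.2 ± 5.08), a transmembrane ligand of plexin-A1. Among the other ligand families the highest were *Ntn1* (30.9 ± 6.03), *Efnb3* (26.5 ± 3.59), *Sema3a* (15.7 ± 2.65), *Sema5a* (12.3 ± 0.904), *Efna3* (7.29 ± 0.630) and *Slit3* (5.83 ± 0.822). Among the other receptor families the highest were *Unc5b* (31.7 ± 1.92), *Ephb1* (29.2 ± 1.72), *Plxna1* (28.5 ± 1.89), *Epha8* (23.3 ± 5.31) and *Plxnd1* (23.1 ± 3.36), the only plexin D. *Robo2* (16.1 ± 0.453), *Plxnc1* (11.99 ± 3.56) and *Nrp1* (6.14 ± 0.361) topped their families at lower levels, and the netrin receptor *Dcc* stood at 0.903 ± 0.231 TPM. Much of the *Plxnd1* TPM came from retained-intron transcripts, and 28.0% of it from coding ones, on average over the RNA libraries of all genotypes.

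**Figure D1:**
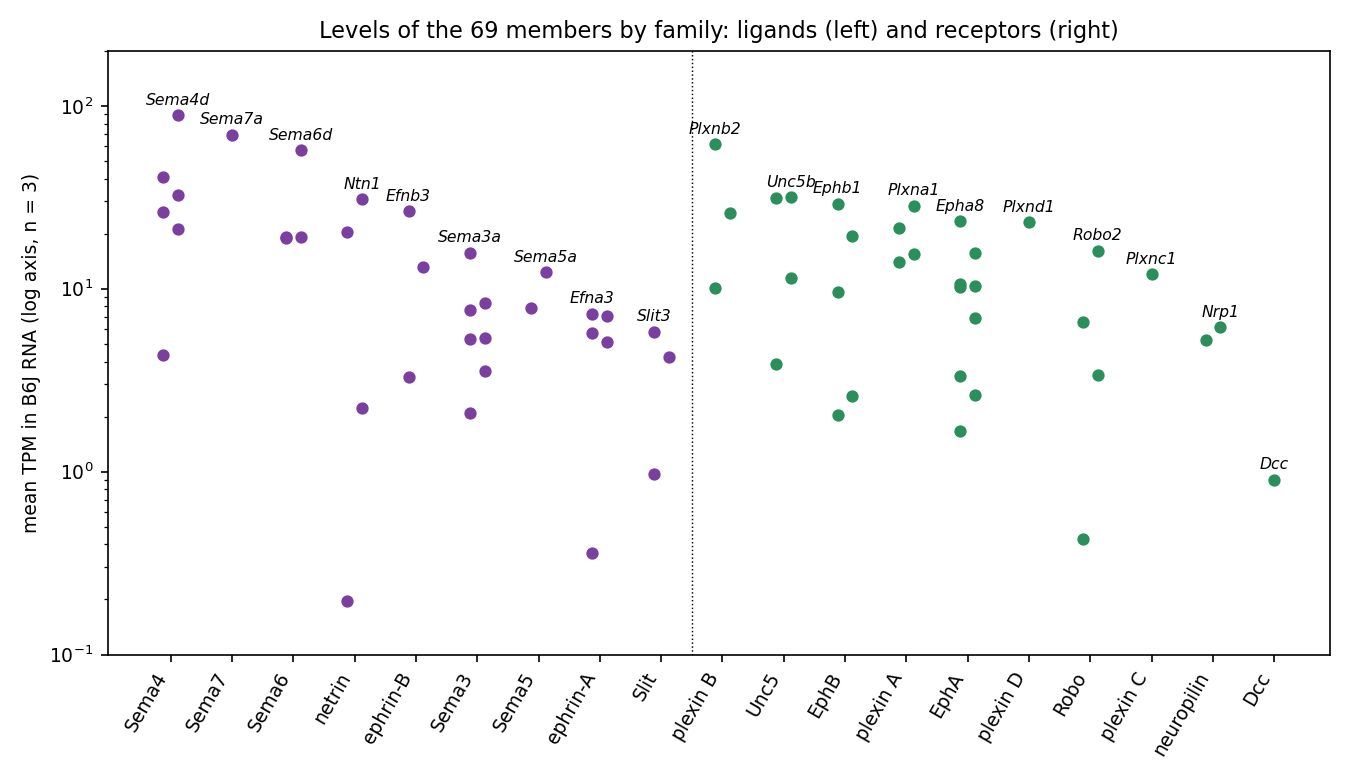
Mean RNA level of each of the 69 members in B6J cerebellum (TPM, log axis, n = 3 libraries), grouped by family with ligands in purple on the left and receptors in green on the right. The most abundant member of each family is named; *Sema4d* was highest at 88.9 TPM, and the *Dcc* family, with 1 gene, was lowest at 0.903.

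The members under 1 TPM were *Slit1*, *Dcc*, *Robo3*, *Efna4* and *Ntn5* (chosen after their values were seen, at 0.976, 0.903, 0.431, 0.359 and 0.197 TPM). Of these, only *Ntn5*, a secreted netrin, had too few RNA counts for testing in B6J.*Gtpbp1*-/- against B6J and between the mutants. Summed over all 69 members, RNA was 1100.4, 1116 and 1013 TPM in B6J, 1110.5, 1055 and 1080.3 in B6J.*Gtpbp1*-/- and 1209, 1109 and 1081 in B6J-*Gtpbp2*-/- libraries. These totals overlapped between groups, as did those of ligands, while the receptor total was 482, 493 and 456 TPM in B6J, 536, 511 and 520.1 in B6J.*Gtpbp1*-/- and 556, 527 and 499.9 in B6J-*Gtpbp2*-/- libraries, higher in every mutant library than in any B6J library. Among receptor families, the sums of neuropilins, Robo receptors, EphB receptors and *Dcc* were above B6J in every mutant library, and those of EphA, the Unc5 family and plexins A, B and C overlapped. The EphB sum was 62.0, 62.9 and 63.8 TPM in B6J, 73.5, 70.2 and 70.1 in B6J.*Gtpbp1*-/- and 74.6, 74.0 and 74.8 in B6J-*Gtpbp2*-/- libraries, and the neuropilin sum 11.0, 11.9 and 11.3 TPM in B6J, 17.9, 19.4 and 18.4 in B6J.*Gtpbp1*-/- and 15.5, 18.8 and 22.3 in B6J-*Gtpbp2*-/- libraries. Among ligand families, class 3 semaphorins were above B6J in every mutant library, and netrins were below it. The netrin sum was 52.4, 59.6 and 49.4 TPM in B6J, 45.8, 37.8 and 43.0 in B6J.*Gtpbp1*-/- and 46.4, 43.9 and 34.7 in B6J-*Gtpbp2*-/- libraries. Class 4 and 5 semaphorins were below and Slits and plexin D above B6J in B6J.*Gtpbp1*-/- alone, and ephrin-B was above it in B6J-*Gtpbp2*-/- alone. Sums per family and per role were not tested, and how often sums of other genes lie apart from B6J was not computed. They add TPM over all transcripts, coding or not. From counts, receptors had a median log2 change of 0.03 in B6J.*Gtpbp1*-/-, with 18 up and 16 down. In B6J-*Gtpbp2*-/- it was 0.12, with 20 up and 14 down.

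In RNA of B6J.*Gtpbp1*-/- against B6J, 23 of 68 members tested were called, against 13.8% of all genes tested. Of these, 8 were higher (5.90% of all genes were) and 15 lower (7.93%). Ligands had 2 higher and 11 lower of 34 and receptors 6 higher and 4 lower of 34, a difference that was not tested. In B6J-*Gtpbp2*-/- against B6J, 13 of 69 members were called (8.63% of all genes), 7 higher (3.61%) and 6 lower (5.02%), with 3 and 3 of 35 ligands and 4 and 3 of 34 receptors. Members had a median change of -0.05 in B6J.*Gtpbp1*-/-, and of -0.00 in B6J-*Gtpbp2*-/-, beside 0.03 over all genes in both. All genes tested include non-coding ones. On protein-coding transcripts alone, 21 members were called in B6J.*Gtpbp1*-/- (17.2% of all genes) and 11 in B6J-*Gtpbp2*-/- (10.8%). Members also had more counts than all genes tested, and the part of depth in these shares was not tested. A term for sex left 20 members called in B6J.*Gtpbp1*-/- (9.36% of all genes) and 5 in B6J-*Gtpbp2*-/- (4.31%): *Epha3*, *Nrp2*, *Ntn4*, *Plxna4* and *Sema3c*. In the B6J-*Gtpbp2*-/- comparison B6J replicate 2 was the only male library, so that term and the omission of this library, which left the same 5 members, are in effect 1 result. The count was 6 without B6J replicate 1 (3.92% of all genes), 5 without B6J-*Gtpbp2*-/- replicate 3 (4.09%) and 18 without B6J-*Gtpbp2*-/- replicate 1 (9.81%), so the share over all genes moved with it. Upper-quartile scaling moved the balance of directions over all genes, from 42.6% of calls higher to 54.9% in B6J.*Gtpbp1*-/- and from 41.8% to 53.3% in B6J-*Gtpbp2*-/-. Under it members were 9 higher and 13 lower in B6J.*Gtpbp1*-/- and 9 higher and 4 lower in B6J-*Gtpbp2*-/-.

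**Figure D2:**
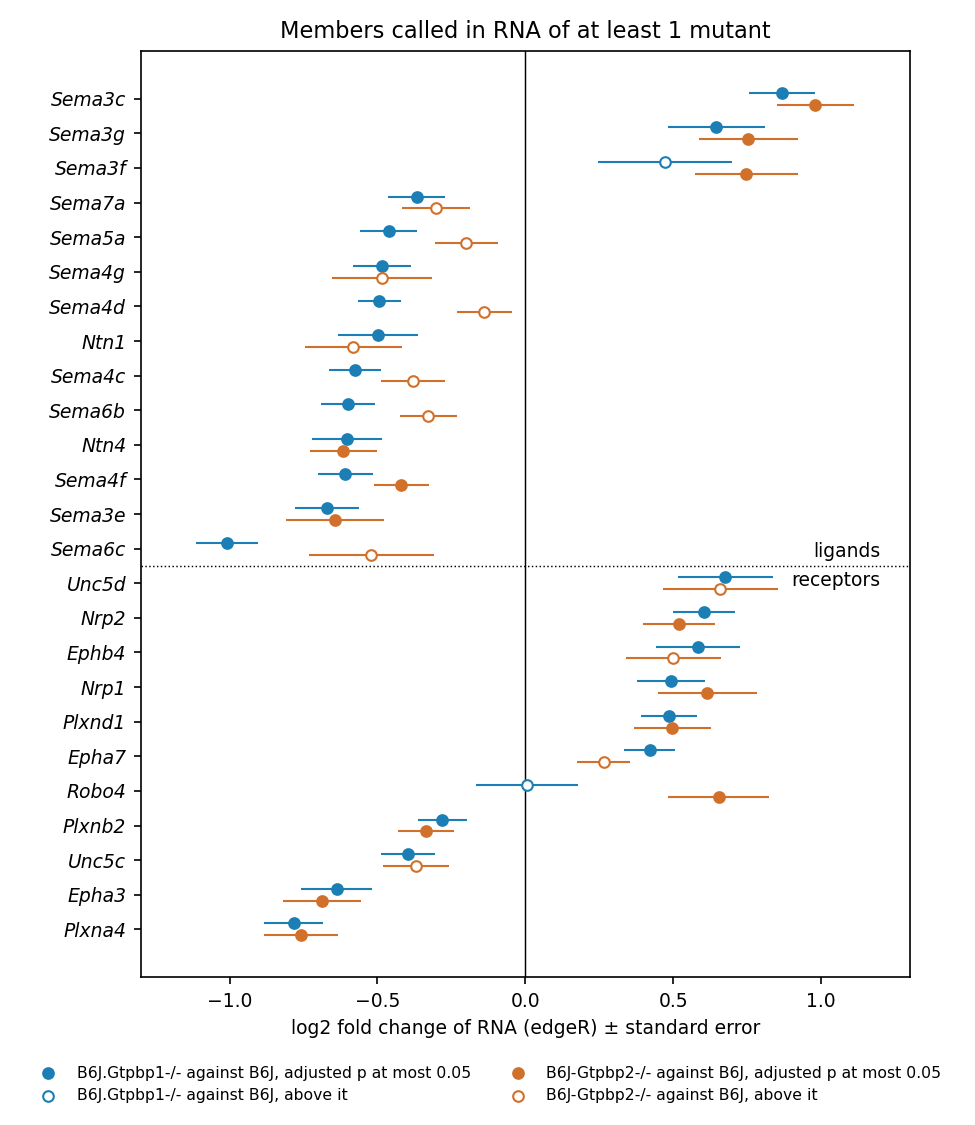
RNA log2 fold change against B6J of the 25 members called in at least 1 mutant (edgeR, error bars are standard errors, 3 libraries per group), with ligands above and receptors below the dotted line. Blue marks B6J.*Gtpbp1*-/-, orange B6J-*Gtpbp2*-/-, filled points an adjusted p of at most 0.05 and open points a higher one; the range ran from -1.01 (*Sema6c*) to 0.98 (*Sema3c*).

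Among secreted semaphorins, *Sema3c* RNA was 11.6, 12.4 and 12.7 CPM in B6J, 23.8, 23.2 and 20.6 in B6J.*Gtpbp1*-/- and 28.6, 21.9 and 22.6 in B6J-*Gtpbp2*-/- libraries. *Sema3c* (ENSMUSG00000028780.13, chr5:17574281-17730268, plus strand) binds neuropilins and plexin-D1 and guides cortical axons. Every mutant library lay above every B6J library, and it rose in both comparisons (0.87 ± 0.11, adjusted p 0.000184 in B6J.*Gtpbp1*-/-; 0.98 ± 0.13, adjusted p 0.00109 in B6J-*Gtpbp2*-/-). It kept its call in every alternative fit and without any single library. *Sema3g*, a ligand of neuropilin-2 known from blood vessels, was 5.56, 6.35 and 7.29 CPM in B6J, 9.18, 9.83 and 11.2 in B6J.*Gtpbp1*-/- and 9.71, 10.7 and 12.2 in B6J-*Gtpbp2*-/- libraries. It too rose without overlap in B6J.*Gtpbp1*-/- (0.65 ± 0.16, adjusted p 0.0183) and B6J-*Gtpbp2*-/- (0.75 ± 0.17, adjusted p 0.0179). The *Sema3g* calls were less stable: the B6J.*Gtpbp1*-/- call was lost without B6J.*Gtpbp1*-/- replicate 2 (0.66) or 3 (0.56) or B6J replicate 1 (0.55) or 2 (0.64). The B6J-*Gtpbp2*-/- call was lost without B6J replicate 1 (0.66) or 2 (0.75) or B6J-*Gtpbp2*-/- replicate 2 (0.76) or 3 (0.67).

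*Sema3f*, which repels axons through neuropilin-2, was 6.03, 5.90 and 8.004 CPM in B6J, 12.1, 9.54 and 6.18 in B6J.*Gtpbp1*-/- and 12.2, 9.82 and 11.7 in B6J-*Gtpbp2*-/- libraries. The B6J.*Gtpbp1*-/- group overlapped B6J (0.47 ± 0.23, adjusted p 0.209), and *Sema3f* rose in B6J-*Gtpbp2*-/- (0.75 ± 0.18, adjusted p 0.0232), a call lost without B6J replicate 1 (0.68) or 2 (0.67) or B6J-*Gtpbp2*-/- replicate 1 (0.68) or 3 (0.72). *Sema3e*, which acts on plexin-D1 without a neuropilin, went the other way. Its RNA was 24.8, 29.3 and 30.6 CPM in B6J, 18.7, 17.4 and 17.4 in B6J.*Gtpbp1*-/- and 23.3, 14.3 and 17.0 in B6J-*Gtpbp2*-/- libraries, below B6J in every mutant library (-0.67 ± 0.11, adjusted p 0.00109 in B6J.*Gtpbp1*-/-; -0.64 ± 0.17, adjusted p 0.0366 in B6J-*Gtpbp2*-/-). The B6J-*Gtpbp2*-/- call was lost in 5 of 6 leave-one-library-out fits (-0.86 to -0.50) and kept only without B6J-*Gtpbp2*-/- replicate 1. Of 7 class 3 genes, 2 were higher and 1 lower in B6J.*Gtpbp1*-/- and 3 higher and 1 lower in B6J-*Gtpbp2*-/-.

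Class 4 semaphorins, which are transmembrane ligands of plexins, had 4 of 6 genes lower in B6J.*Gtpbp1*-/- and 1 in B6J-*Gtpbp2*-/-. *Sema4f* RNA was 58.0, 72.5 and 62.3 CPM in B6J, 44.3, 40.9 and 41.9 in B6J.*Gtpbp1*-/- and 50.3, 47.3 and 47.2 in B6J-*Gtpbp2*-/- libraries, a fall without overlap in both (-0.61 ± 0.09, adjusted p 0.000651 in B6J.*Gtpbp1*-/-; -0.42 ± 0.09, adjusted p 0.0180 in B6J-*Gtpbp2*-/-). The B6J-*Gtpbp2*-/- call of *Sema4f* was lost without B6J replicate 2 (-0.33) or B6J-*Gtpbp2*-/- replicate 2 (-0.41) or 3 (-0.40). It was also lost in 3 of 10 other settings, with estimates as small as -0.22. *Sema4c*, a ligand of plexin-B2, was 42.3, 40.2 and 44.4 CPM in B6J, 28.4, 27.8 and 29.4 in B6J.*Gtpbp1*-/- and 37.4, 32.0 and 28.7 in B6J-*Gtpbp2*-/- libraries. All mutant libraries lay below B6J, and *Sema4c* fell in B6J.*Gtpbp1*-/- (-0.58 ± 0.09, adjusted p 0.000711) with no call in B6J-*Gtpbp2*-/- (-0.38 ± 0.11, adjusted p 0.0515). *Sema4g*, also a plexin-B2 ligand, was 133, 120.4 and 111 CPM in B6J, 98.3, 76.0 and 87.5 in B6J.*Gtpbp1*-/- and 112, 81.9 and 68.1 in B6J-*Gtpbp2*-/- libraries. It fell without overlap in B6J.*Gtpbp1*-/- (-0.49 ± 0.10, adjusted p 0.00528), a call lost with all 9 libraries in 1 model (-0.48) and on coding transcripts alone (-0.41), and overlapped B6J in B6J-*Gtpbp2*-/- (-0.48 ± 0.17, adjusted p 0.128).

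*Sema4d* RNA was 124, 126 and 112 CPM in B6J, 83.7, 87.9 and 86.4 in B6J.*Gtpbp1*-/- and 122, 96.3 and 112 in B6J-*Gtpbp2*-/- libraries. It fell without overlap in B6J.*Gtpbp1*-/- (-0.49 ± 0.07, adjusted p 0.000555) and overlapped B6J in B6J-*Gtpbp2*-/- (-0.14 ± 0.09, adjusted p 0.443). Between the mutants its difference of -0.36 ± 0.09 was not called (adjusted p 0.831). Oligodendrocyte markers, with *Mbp* the most abundant, took a similar course in RNA, summing to 9404, 8095 and 9311 TPM in B6J, 7627, 7752 and 6666 in B6J.*Gtpbp1*-/- and 11058, 8341 and 9073 in B6J-*Gtpbp2*-/- libraries. Of these, 6 of 6 were called lower in B6J.*Gtpbp1*-/- and 0 in B6J-*Gtpbp2*-/-. On footprints neither was called: *Sema4d* was 133, 142 and 118 CPM in B6J, 111, 118 and 126 in B6J.*Gtpbp1*-/- and 93.2, 142 and 84.2 in B6J-*Gtpbp2*-/- libraries, overlapping in both (-0.15 and -0.31), and 0 of 6 markers were called (medians 0.10 and 0.21). The part of these markers in the *Sema4d* result was not tested.

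Of the remaining semaphorins, *Sema5a*, which carries thrombospondin repeats, was 73.9, 75.0 and 64.4 CPM in B6J, 45.4, 54.5 and 55.7 in B6J.*Gtpbp1*-/- and 70.9, 53.8 and 62.2 in B6J-*Gtpbp2*-/- libraries. It fell in B6J.*Gtpbp1*-/- without overlap (-0.46 ± 0.10, adjusted p 0.00616) and overlapped B6J in B6J-*Gtpbp2*-/- (-0.20 ± 0.11, adjusted p 0.308). *Sema6b*, a transmembrane ligand of plexin-A4, was 42.8, 46.7 and 40.9 CPM in B6J, 30.8, 28.3 and 27.4 in B6J.*Gtpbp1*-/- and 38.6, 33.0 and 32.8 in B6J-*Gtpbp2*-/- libraries. Both mutants lay below B6J, with a call in B6J.*Gtpbp1*-/- (-0.60 ± 0.09, adjusted p 0.000675) and none in B6J-*Gtpbp2*-/- (-0.33 ± 0.10, adjusted p 0.0592). *Sema7a*, which acts on plexin-C1 and integrins, was 158, 153 and 132 CPM in B6J, 106, 109 and 129 in B6J.*Gtpbp1*-/- and 100.5, 122 and 139 in B6J-*Gtpbp2*-/- libraries. It fell in B6J.*Gtpbp1*-/- without overlap (-0.37 ± 0.10, adjusted p 0.0211), a call lost without B6J.*Gtpbp1*-/- replicate 1 (-0.31) or 2 (-0.33) or B6J replicate 1 (-0.32) or 2 (-0.35) and in 4 of 10 other settings (-0.38 to -0.32 over the 10), and overlapped B6J in B6J-*Gtpbp2*-/- (-0.30 ± 0.11, adjusted p 0.138).

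*Sema6c*, a transmembrane semaphorin, showed the largest called fall, with RNA of 25.8, 24.5 and 23.9 CPM in B6J, 12.8, 11.7 and 12.5 in B6J.*Gtpbp1*-/- and 24.5, 14.3 and 13.2 in B6J-*Gtpbp2*-/- libraries. The B6J.*Gtpbp1*-/- libraries were all below B6J (-1.01 ± 0.10, adjusted p 3.36e-05), while B6J-*Gtpbp2*-/- replicate 1 reached the B6J range (-0.52 ± 0.21, adjusted p 0.179). Its TPM values overlapped, at 21.4, 20.3 and 15.97 TPM in B6J, 12.3, 15.7 and 17.2 in B6J.*Gtpbp1*-/- and 25.1, 13.5 and 14.5 in B6J-*Gtpbp2*-/- libraries. Coding transcripts held 34.5% of *Sema6c* TPM on average over the RNA libraries of all genotypes. The long coding transcript Sema6c-201 went from 21.6% of the total in B6J to 11.8% in B6J.*Gtpbp1*-/- and 17.2% in B6J-*Gtpbp2*-/-. In fits that took effective length into account, the B6J.*Gtpbp1*-/- change was -0.52 and was not called. Between the mutants the difference was -0.49 ± 0.21, adjusted p 1.00.

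Netrins had 2 lower of 3 tested in B6J.*Gtpbp1*-/- and 1 lower of 4 in B6J-*Gtpbp2*-/-. *Ntn4* (ENSMUSG00000020019.4, chr10:93640681-93747207, plus strand), a netrin of basement membranes, was 37.8, 39.8 and 46.2 CPM in B6J, 28.2, 23.2 and 30.6 in B6J.*Gtpbp1*-/- and 29.5, 27.9 and 23.9 in B6J-*Gtpbp2*-/- libraries. Every mutant library was below every B6J library, and it fell in both (-0.60 ± 0.12, adjusted p 0.00383 in B6J.*Gtpbp1*-/-; -0.62 ± 0.11, adjusted p 0.00716 in B6J-*Gtpbp2*-/-), with the call kept in all alternative fits. *Ntn1*, the netrin that attracts or repels axons through *Dcc* and Unc5 receptors, was 118, 136 and 90.2 CPM in B6J, 88.8, 73.6 and 82.3 in B6J.*Gtpbp1*-/- and 87.3, 81.3 and 62.8 in B6J-*Gtpbp2*-/- libraries. It fell in B6J.*Gtpbp1*-/- without overlap (-0.50 ± 0.14, adjusted p 0.0373), but the call was lost in 5 of 6 leave-one-library-out fits (-0.65 to -0.36) and kept only without B6J replicate 3. All B6J-*Gtpbp2*-/- libraries were below B6J as well, with no call (-0.58 ± 0.17, adjusted p 0.0684).

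No ephrin or Slit was called in either mutant (0 of 5 ephrin-A genes, 0 of 3 ephrin-B genes and 0 of 3 Slits). *Slit1*, a secreted ligand of Robo receptors chosen after its values were seen, was 0.767, 1.33 and 0.827 TPM in B6J, 4.24, 3.12 and 1.959 in B6J.*Gtpbp1*-/- and 5.15, 1.77 and 5.21 in B6J-*Gtpbp2*-/- libraries. In TPM no mutant library reached down to B6J. From counts, a different measure, its point estimates were the largest of the set without a call (1.84 ± 0.59, adjusted p 0.0988 in B6J.*Gtpbp1*-/-; 2.52 ± 0.59, adjusted p 0.0529 in B6J-*Gtpbp2*-/-). Among the settings that called at most 6 members in B6J-*Gtpbp2*-/-, *Slit1* was called with an effective length offset (1.91) and with limma per effective length (1.77). Whether it was called in settings with more calls is not given here. Markers of brainstem and midbrain neurons, with *Slc17a6* the most abundant, summed to 15.9, 16.4 and 47.3 TPM in B6J, 70.0, 85.6 and 37.8 in B6J.*Gtpbp1*-/- and 91.5, 49.4 and 82.3 in B6J-*Gtpbp2*-/- libraries. Of 4 tested of 6 such markers, 1 was called higher in B6J.*Gtpbp1*-/- and 0 in B6J-*Gtpbp2*-/-; their part in the *Slit1* values was not tested.

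Both neuropilins, the co-receptors of class 3 semaphorins, rose in both mutants. *Nrp2* RNA (ENSMUSG00000025969.15, chr1:62703285-62818695, plus strand) was 19.7, 22.6 and 18.6 CPM in B6J, 30.3, 33.1 and 29.5 in B6J.*Gtpbp1*-/- and 26.3, 27.8 and 33.7 in B6J-*Gtpbp2*-/- libraries, without overlap (0.60 ± 0.10, adjusted p 0.00188 in B6J.*Gtpbp1*-/-; 0.52 ± 0.12, adjusted p 0.0244 in B6J-*Gtpbp2*-/-). The B6J-*Gtpbp2*-/- call of *Nrp2* was lost without B6J replicate 1 (0.50) or 3 (0.46) or B6J-*Gtpbp2*-/- replicate 3 (0.41). *Nrp1* (ENSMUSG00000025810.9, chr8:128358604-128503363, plus strand), which also binds VEGF, was 11.6, 12.3 and 13.4 CPM in B6J, 17.2, 17.9 and 17.8 in B6J.*Gtpbp1*-/- and 14.5, 19.6 and 23.6 in B6J-*Gtpbp2*-/- libraries. It rose without overlap in B6J.*Gtpbp1*-/- (0.49 ± 0.12, adjusted p 0.0124), a call lost without B6J.*Gtpbp1*-/- replicate 2 (0.48) or B6J replicate 1 (0.44). It rose in B6J-*Gtpbp2*-/- as well (0.62 ± 0.17, adjusted p 0.0442), a call lost in 5 of 6 leave-one-library-out fits (0.45 to 0.78) and kept only without B6J-*Gtpbp2*-/- replicate 1.

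Plexins moved in both directions. *Plxna4* (ENSMUSG00000029765.12, chr6:32144268-32588192, minus strand), which transmits *Sema3a* and class 6 signals, was 124, 119 and 92.9 CPM in B6J, 65.2, 64.4 and 66.9 in B6J.*Gtpbp1*-/- and 77.3, 61.3 and 61.6 in B6J-*Gtpbp2*-/- libraries. It fell without overlap in both (-0.78 ± 0.10, adjusted p 0.000160 in B6J.*Gtpbp1*-/-; -0.76 ± 0.12, adjusted p 0.00435 in B6J-*Gtpbp2*-/-), and no alternative fit or leave-out ended either call. *Plxnb2*, the receptor needed for granule cell precursor migration, was 203, 214 and 181 CPM in B6J, 177, 155 and 162 in B6J.*Gtpbp1*-/- and 169, 166 and 141 in B6J-*Gtpbp2*-/- libraries. Its small fall, without overlap (-0.28 ± 0.08, adjusted p 0.0394 in B6J.*Gtpbp1*-/-; -0.34 ± 0.09, adjusted p 0.0492 in B6J-*Gtpbp2*-/-), was unstable, and its TPM values overlapped B6J in both mutants. Of 10 other settings, 6 ended the call in B6J.*Gtpbp1*-/- (-0.31 to -0.23 over the 10) and 5 in B6J-*Gtpbp2*-/- (-0.34 to -0.27). In B6J.*Gtpbp1*-/- the call was lost without B6J.*Gtpbp1*-/- replicate 2 (-0.24) or 3 (-0.27) or B6J replicate 1 (-0.27) or 2 (-0.23). The B6J-*Gtpbp2*-/- call was lost without B6J replicate 1 (-0.32) or 2 (-0.28) or B6J-*Gtpbp2*-/- replicate 2 (-0.37) or 3 (-0.25).

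*Plxnd1*, the *Sema3e* receptor of endothelium and some neurons, was 30.9, 31.8 and 27.4 CPM in B6J, 43.9, 38.8 and 43.9 in B6J.*Gtpbp1*-/- and 33.7, 45.5 and 48.7 in B6J-*Gtpbp2*-/- libraries. It rose without overlap (0.48 ± 0.10, adjusted p 0.00411 in B6J.*Gtpbp1*-/-; 0.50 ± 0.13, adjusted p 0.0379 in B6J-*Gtpbp2*-/-), and the B6J-*Gtpbp2*-/- call was lost in 5 of 6 leave-one-library-out fits (0.39 to 0.64), kept only without B6J-*Gtpbp2*-/- replicate 1. *Robo4*, a Robo receptor of endothelium, was 10.5, 7.39 and 7.63 CPM in B6J, 8.03, 9.30 and 8.37 in B6J.*Gtpbp1*-/- and 12.3, 13.1 and 14.9 in B6J-*Gtpbp2*-/- libraries. It overlapped B6J in B6J.*Gtpbp1*-/- (0.01 ± 0.17, adjusted p 0.990) and rose in B6J-*Gtpbp2*-/- (0.65 ± 0.17, adjusted p 0.0374), a call lost without B6J replicate 2 (0.56) or 3 (0.59) or B6J-*Gtpbp2*-/- replicate 2 (0.67) or 3 (0.57). *Ephb4*, the venous receptor of ephrin-B2, was 6.97, 7.47 and 6.76 CPM in B6J, 10.03, 11.5 and 10.35 in B6J.*Gtpbp1*-/- and 8.53, 11.3 and 10.3 in B6J-*Gtpbp2*-/- libraries. Both mutants lay above B6J, with a call in B6J.*Gtpbp1*-/- (0.58 ± 0.14, adjusted p 0.0158), lost without B6J.*Gtpbp1*-/- replicate 2 (0.52) and in 3 of 10 other settings (0.56 to 0.64 over the 10), and none in B6J-*Gtpbp2*-/- (0.50 ± 0.16, adjusted p 0.0823).

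Endothelial markers, read beside these vascular members, summed to 71.6, 71.0 and 76.4 TPM in B6J, 106, 119.6 and 116 in B6J.*Gtpbp1*-/- and 98.1, 134 and 142 in B6J-*Gtpbp2*-/- libraries, with *Cldn5* the most abundant (31.2 TPM in B6J). Of 5, 3 were called higher in B6J.*Gtpbp1*-/-, where *Robo4* was not, and 2 in B6J-*Gtpbp2*-/-. Mural cell markers, led by *Rgs5*, summed to 85.1, 84.8 and 90.8 TPM in B6J, 113, 152 and 162 in B6J.*Gtpbp1*-/- and 86.9, 176 and 179 in B6J-*Gtpbp2*-/- libraries, with 2 and 0 of 4 called higher. Microglial markers, led by *C1qa*, went from 55.2, 56.2 and 60.3 TPM in B6J to 133, 115 and 119 in B6J.*Gtpbp1*-/- and 118, 118 and 124 in B6J-*Gtpbp2*-/-, with 3 of 5 higher in both. For *Sema3g*, *Nrp1*, *Plxnd1*, *Robo4* and *Ephb4* their part in the result was not tested.

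**Figure D3:**
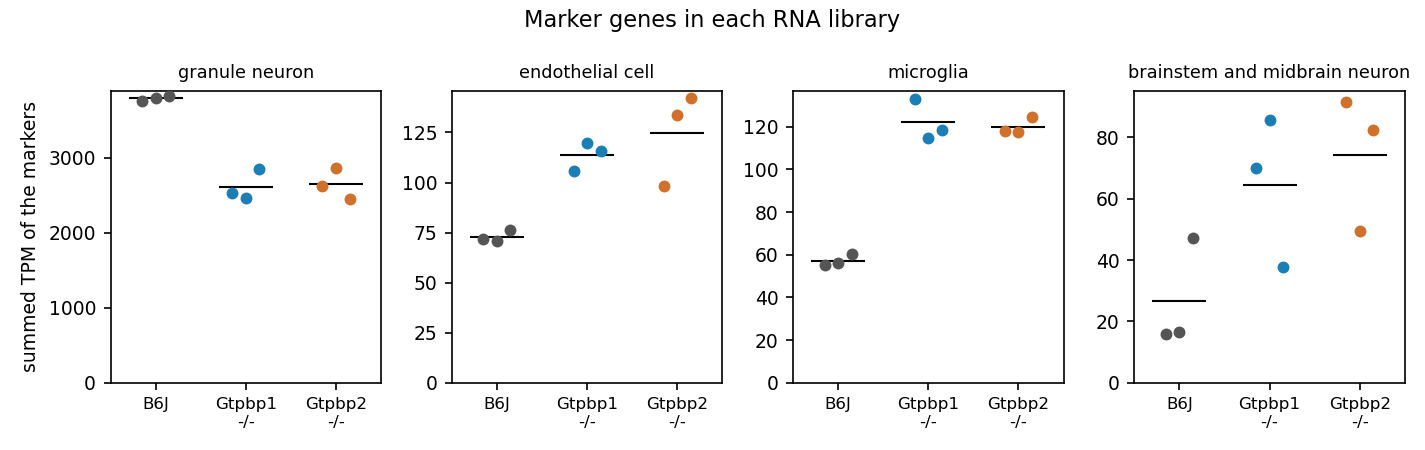
Summed RNA level (TPM) of marker genes of granule neurons, endothelial cells, microglia, and brainstem and midbrain neurons in each RNA library of B6J, B6J.*Gtpbp1*-/- and B6J-*Gtpbp2*-/-; points are libraries and lines are means (n = 3). Granule neuron markers were lower and microglial markers higher in every mutant library. Brainstem and midbrain markers, from 15.9 to 91.5 TPM, overlapped B6J in B6J.*Gtpbp1*-/- and lay above it in every B6J-*Gtpbp2*-/- library.

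Of 9 EphA receptors, which bind ephrin-A ligands, 1 rose and 1 fell in B6J.*Gtpbp1*-/- and 1 fell in B6J-*Gtpbp2*-/-. *Epha3* (ENSMUSG00000052504.7, chr16:63543534-63864175, minus strand) was 25.7, 33.1 and 25.4 CPM in B6J, 17.2, 17.8 and 19.3 in B6J.*Gtpbp1*-/- and 19.2, 17.6 and 15.7 in B6J-*Gtpbp2*-/- libraries. It fell without overlap in both (-0.64 ± 0.12, adjusted p 0.00306 in B6J.*Gtpbp1*-/-; -0.69 ± 0.13, adjusted p 0.00892 in B6J-*Gtpbp2*-/-) and kept both calls in every alternative fit. *Epha7*, a receptor in the mapping of retinal and cortical axons, was 32.3, 35.0 and 33.8 CPM in B6J, 43.5, 48.5 and 43.9 in B6J.*Gtpbp1*-/- and 42.5, 37.3 and 42.3 in B6J-*Gtpbp2*-/- libraries. It lay above B6J in every mutant library, with a call in B6J.*Gtpbp1*-/- (0.42 ± 0.09, adjusted p 0.00532) and none in B6J-*Gtpbp2*-/- (0.27 ± 0.09, adjusted p 0.0934).

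Netrin receptors of the Unc5 family also split. *Unc5c*, whose loss in mice malforms the rostral cerebellum, was 156, 174 and 142 CPM in B6J, 122.8, 109 and 128 in B6J.*Gtpbp1*-/- and 138, 125 and 104 in B6J-*Gtpbp2*-/- libraries. It was below B6J in every mutant library and called in B6J.*Gtpbp1*-/- (-0.40 ± 0.09, adjusted p 0.0101), a call lost without B6J.*Gtpbp1*-/- replicate 2 (-0.33) or B6J replicate 2 (-0.32), and not in B6J-*Gtpbp2*-/- (-0.37 ± 0.11, adjusted p 0.0630). *Unc5d*, which also binds *Flrt2*, was 14.6, 20.3 and 19.3 CPM in B6J, 36.2, 26.3 and 24.5 in B6J.*Gtpbp1*-/- and 37.97, 24.9 and 23.3 in B6J-*Gtpbp2*-/- libraries. It was above B6J in every mutant library and called in B6J.*Gtpbp1*-/- (0.68 ± 0.16, adjusted p 0.0161), a call lost without B6J.*Gtpbp1*-/- replicate 1 (0.49) or B6J replicate 1 (0.54), with none in B6J-*Gtpbp2*-/- (0.66 ± 0.20, adjusted p 0.0685). *Dcc*, the attractive netrin receptor, was 0.797, 1.17 and 0.745 TPM in B6J, 1.278, 1.3 and 1.31 in B6J.*Gtpbp1*-/- and 2.46, 1.44 and 1.86 in B6J-*Gtpbp2*-/- libraries. Its changes from counts of 0.36 ± 0.24, adjusted p 0.394, in B6J.*Gtpbp1*-/-, and 0.94 ± 0.27, adjusted p 0.0514, in B6J-*Gtpbp2*-/-, were not called. Granule neuron markers fell in both mutants as did *Plxna4*, *Sema4f*, *Sema3e*, *Ntn4*, *Epha3* and *Plxnb2*. In B6J.*Gtpbp1*-/- 7 of the 8 markers were called lower (median -0.64). So were *Sema4c*, *Sema4d*, *Sema4g*, *Sema5a*, *Sema6b*, *Sema6c*, *Sema7a*, *Ntn1* and *Unc5c* in that mutant. The part of the granule neuron markers in the results of all these members was not tested.

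Processing settings also ended RNA calls of further members, out of 10 settings each. In B6J.*Gtpbp1*-/- these were *Ntn1* (3 settings, -0.55 to -0.45 over the 10), *Unc5d* (2, 0.57 to 0.73) and *Unc5c* (1, -0.41 to -0.35). For B6J-*Gtpbp2*-/- they were *Sema3e* (6, -0.67 to -0.60), *Nrp1* (4, 0.59 to 0.66), *Plxnd1* (4, 0.35 to 0.54), *Robo4* (4, 0.56 to 0.92), *Sema3f* (3, 0.55 to 0.96), *Nrp2* (2, 0.52 to 0.60) and *Sema3g* (1, 0.74 to 0.80).

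On footprints in B6J.*Gtpbp1*-/- against B6J, edgeR called 0 of 66 members tested (0.745% of all genes), with 7 at an unadjusted p under 0.05 (12.6% of all genes) and 4 called by DESeq2 (2.91%). Those 4 were *Nrp1*, *Plxna4*, *Sema3c* and *Sema3g*. With B6J.*Gtpbp1*-/- replicate 3 left out, edgeR called *Nrp1* (0.93), and with all 9 libraries in 1 model it called *Plxna4* (-0.74). For B6J-*Gtpbp2*-/- it called 2 of 66 (2.94%), both higher (1.28%), *Sema3c* and *Sema3g*, and 0 with a term for sex (0.326%). With B6J replicates 1 and 2 male and every B6J-*Gtpbp2*-/- library female, that term left B6J replicate 3 as the only control, so it is a comparison with 1 library. The count of 2 became 0 without B6J replicate 2 (1.36% of all genes) or B6J-*Gtpbp2*-/- replicate 1 (0.779%), and 3 without B6J replicate 3 (4.54%). It was 1 without B6J replicate 1 (2.03%) or B6J-*Gtpbp2*-/- replicate 2 (1.10%) or 3 (2.17%). Median changes over members were -0.05 in B6J.*Gtpbp1*-/- and -0.16 in B6J-*Gtpbp2*-/-, beside 0.01 over all genes in both. *Epha1*, *Ntn5* and *Robo3* had too few footprints for testing in every comparison.

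*Sema3c* footprints were 33.7, 17.1 and 17.3 CPM in B6J, 56.3, 43.4 and 38.8 in B6J.*Gtpbp1*-/- and 49.6, 42.8 and 67.2 in B6J-*Gtpbp2*-/- libraries. The means ± SD were 22.7 ± 9.52, 46.2 ± 9.07 and 53.2 ± 12.6 CPM (n = 3), and neither mutant overlapped B6J. *Sema3c* footprints rose in B6J-*Gtpbp2*-/- (1.24 ± 0.27, adjusted p 0.0249) and were not called in B6J.*Gtpbp1*-/- (1.04 ± 0.28, adjusted p 0.116). The call was lost without B6J replicate 2 (1.09) or B6J-*Gtpbp2*-/- replicate 1 (1.29) or 3 (1.04), and against B6J replicate 3 alone, as the sex term has it, the change was 1.64 without a call. *Sema3g* footprints were 11.2, 13.2 and 15.4 CPM in B6J, 26.9, 20.9 and 27.6 in B6J.*Gtpbp1*-/- and 25.4, 24.8 and 25.02 in B6J-*Gtpbp2*-/- libraries, again without overlap. They rose in B6J-*Gtpbp2*-/- (0.91 ± 0.23, adjusted p 0.0461) with no call in B6J.*Gtpbp1*-/- (0.92 ± 0.25, adjusted p 0.115). That call was lost in 5 of 6 leave-one-library-out fits (0.81 to 1.04), kept only without B6J replicate 3, and against B6J replicate 3 alone the change was 0.71 without a call.

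**Figure D4:**
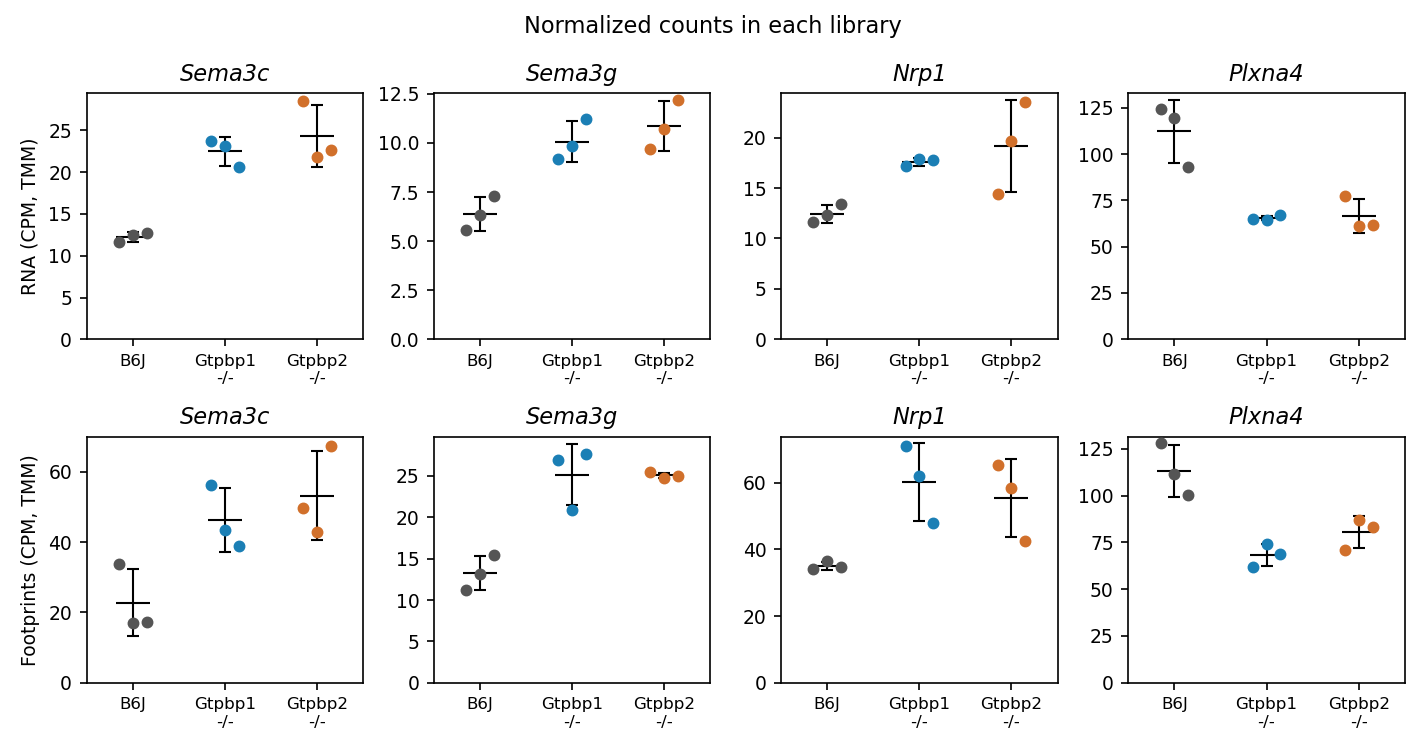
RNA (top) and footprints (bottom) of *Sema3c*, *Sema3g*, *Nrp1* and *Plxna4* in B6J, B6J.*Gtpbp1*-/- and B6J-*Gtpbp2*-/- (CPM after TMM scaling); points are libraries and bars mean ± SD (n = 3). In all 8 panels the mutant libraries lie apart from B6J, with *Sema3c* footprints at 22.7, 46.2 and 53.2 CPM on average. The genes shown are the 4 that DESeq2 called on footprints in B6J.*Gtpbp1*-/-, so this separation does not stand for the members as a whole. Footprints of *Unc5d*, *Sema6c* and *Sema4d*, also called in RNA, overlapped B6J in both mutants.

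*Nrp1* footprints were 34.1, 36.4 and 34.8 CPM in B6J, 70.9, 61.9 and 47.8 in B6J.*Gtpbp1*-/- and 65.2, 58.6 and 42.5 in B6J-*Gtpbp2*-/- libraries. They lay above B6J in every mutant library, without a call (0.79 ± 0.21, adjusted p 0.109 in B6J.*Gtpbp1*-/-; 0.66 ± 0.20, adjusted p 0.0893 in B6J-*Gtpbp2*-/-). *Plxna4* footprints, at 128, 111 and 101 CPM in B6J, 61.9, 74.1 and 68.9 in B6J.*Gtpbp1*-/- and 70.7, 87.2 and 83.3 in B6J-*Gtpbp2*-/- libraries, lay below B6J in every mutant library, also without a call (-0.73 ± 0.18, adjusted p 0.0981 in B6J.*Gtpbp1*-/-; -0.49 ± 0.16, adjusted p 0.130 in B6J-*Gtpbp2*-/-). *Robo4* footprints were 18.0, 9.44 and 21.5 CPM in B6J, 34.2, 20.8 and 20.4 in B6J.*Gtpbp1*-/- and 32.6, 37.3 and 30.7 in B6J-*Gtpbp2*-/- libraries. They overlapped B6J in B6J.*Gtpbp1*-/- (0.62 ± 0.32, adjusted p 0.4505) and not in B6J-*Gtpbp2*-/-, where the adjusted p lay just above the limit (1.03 ± 0.27, adjusted p 0.0501). *Robo4* footprints were called in B6J-*Gtpbp2*-/- by DESeq2 (1.04), with no filter (1.03), with upper-quartile scaling (1.04) and without B6J replicate 3 (1.29), and *Nrp1* without B6J-*Gtpbp2*-/- replicate 3 (0.83). The EphB receptor *Ephb2*, chosen after its values were seen, was called lower there with no filter (-0.70) and with a replicate block (-0.73). Endothelial markers summed to 303, 198 and 337 CPM in B6J, 708, 532 and 399 in B6J.*Gtpbp1*-/- and 622, 516 and 485 in B6J-*Gtpbp2*-/- libraries on footprints, with 1 of 5 called higher in each mutant. Mural cell markers summed to 174, 138 and 213 CPM in B6J, 518, 263 and 233 in B6J.*Gtpbp1*-/- and 359, 354 and 279 in B6J-*Gtpbp2*-/- libraries on footprints, with 0 and 2 of 4 called higher. Microglial markers summed to 141, 167 and 142 CPM in B6J, 347, 204 and 406 in B6J.*Gtpbp1*-/- and 202, 206 and 269 in B6J-*Gtpbp2*-/- libraries on footprints, above B6J in every mutant library with 1 of 5 called higher in each. Meningeal fibroblast markers went from 358, 775 and 966 CPM in B6J to 1764, 1455 and 2816 in B6J.*Gtpbp1*-/- and 679.5, 1057 and 559.9 in B6J-*Gtpbp2*-/-, with 0 of 5 called. Choroid plexus markers ran from 62.7 CPM in B6J replicate 3 to 13629.6 in B6J.*Gtpbp1*-/- replicate 1, with 0 of 4 called. For all 5 lists their part in these footprint values was not tested.

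Some members called in RNA also lay apart from B6J on footprints without a call. The share of all genes that did so was not computed, and not every member called in RNA is shown. These values are therefore not read as a result about the members. *Sema4f* footprints were 59.98, 63.2 and 53.6 CPM in B6J, 32.7, 34.1 and 47.1 in B6J.*Gtpbp1*-/- and 47.1, 43.9 and 34.9 in B6J-*Gtpbp2*-/- libraries, below B6J in both (-0.63 and -0.49). Those of *Unc5c*, 122, 126 and 128 CPM in B6J, 99.8, 106 and 77.5 in B6J.*Gtpbp1*-/- and 102, 105 and 79.0 in B6J-*Gtpbp2*-/- libraries, were below as well (-0.40 and -0.40). So were those of *Sema5a*, 55.3, 57.1 and 53.9 CPM in B6J, 44.8, 51.0 and 50.9 in B6J.*Gtpbp1*-/- and 43.9, 44.7 and 38.5 in B6J-*Gtpbp2*-/- libraries (-0.18 and -0.39). *Sema4c* footprints, at 59.5, 67.8 and 58.8 CPM in B6J, 37.2, 46.3 and 58.2 in B6J.*Gtpbp1*-/- and 50.1, 48.2 and 37.0 in B6J-*Gtpbp2*-/- libraries, lay below B6J too (-0.39 and -0.46). Granule neuron markers summed to 3648, 6016 and 4483 CPM in B6J, 3346, 2442 and 3992 in B6J.*Gtpbp1*-/- and 2338, 1987 and 2191 in B6J-*Gtpbp2*-/- libraries on footprints. Of 8, 0 were called lower in B6J.*Gtpbp1*-/- (median -0.60) and 6 in B6J-*Gtpbp2*-/- (-1.22), and their part in the footprint values of these members and *Plxna4* was not tested. Purkinje cell markers summed to 11877, 7804 and 15834 CPM in B6J, 14354, 15590 and 9083 in B6J.*Gtpbp1*-/- and 17758, 17695 and 15371 in B6J-*Gtpbp2*-/- libraries on footprints. They overlapped B6J in both, with 0 of 8 called (medians 0.11 and 0.33), and their part was not tested either.

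For *Ntn4*, *Epha3*, *Sema6c*, *Unc5d* and *Sema7a*, also called in RNA, the footprint groups overlapped in at least 1 mutant. Footprint values of *Nrp2*, *Plxnd1*, *Plxnb2*, *Sema3e*, *Sema4g*, *Sema6b*, *Ntn1*, *Epha7* and *Ephb4*, which were called in RNA, are not given here. *Ntn4* footprints were 37.97, 48.1 and 36.9 CPM in B6J, 30.9, 27.8 and 39.5 in B6J.*Gtpbp1*-/- and 32.8, 33.8 and 27.4 in B6J-*Gtpbp2*-/- libraries, apart from B6J in B6J-*Gtpbp2*-/- alone (-0.32 in B6J.*Gtpbp1*-/-; -0.39 in B6J-*Gtpbp2*-/-). *Epha3* footprints showed the same split, at 19.99, 24.6 and 19.6 CPM in B6J, 19.3, 16.7 and 22.4 in B6J.*Gtpbp1*-/- and 15.5, 15.8 and 11.0 in B6J-*Gtpbp2*-/- libraries (-0.13 and -0.61). *Sema6c* footprints, by contrast with its RNA, were 22.2, 15.1 and 15.1 CPM in B6J, 8.15, 15.1 and 19.0 in B6J.*Gtpbp1*-/- and 14.5, 19.1 and 16.8 in B6J-*Gtpbp2*-/- libraries, overlapping in both (-0.31 and -0.06). For *Unc5d*, whose RNA rose in B6J.*Gtpbp1*-/-, footprints were 29.9, 21.9 and 29.8 CPM in B6J, 21.3, 32.5 and 25.9 in B6J.*Gtpbp1*-/- and 25.6, 28.3 and 27.9 in B6J-*Gtpbp2*-/- libraries, with overlap (-0.03 and 0.00). *Sema7a* footprints, at 372, 433 and 474 CPM in B6J, 441, 347 and 371 in B6J.*Gtpbp1*-/- and 341, 366 and 343 in B6J-*Gtpbp2*-/- libraries, overlapped B6J in B6J.*Gtpbp1*-/- and lay below it in B6J-*Gtpbp2*-/- (-0.14 and -0.29).

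Translation efficiency (TE), footprints relative to RNA, was tested for 65 members, all but *Efna4*, *Epha1*, *Ntn5* and *Robo3*. In B6J.*Gtpbp1*-/- against B6J edgeR called 0 of 65 (0% of all genes), with 3 at an unadjusted p under 0.05 (8.94% of all genes) and 0 called by DESeq2 (0.443%). In B6J-*Gtpbp2*-/- it called 0 of 65 (0.00773%), with 8 at an unadjusted p under 0.05 (12%) and 2 by DESeq2 (1.24%), *Sema3f* and *Slit1*. Median TE changes over members were 0.02 and -0.10, beside 0.03 over all genes in both. Granule neuron markers had median TE changes of 0.08 and -0.54 and Purkinje cell markers of 0.34 and 0.73, with 0 of 8 called in each. The part of these lists in the member medians was not tested. For *Sema3c* the TE estimates were 0.18 ± 0.31 and 0.28 ± 0.32, and for *Sema3g* 0.28 ± 0.27 and 0.17 ± 0.26. *Sema3f*, whose footprints were 26.7, 25.9 and 19.2 CPM in B6J, 13.6, 23.3 and 27.3 in B6J.*Gtpbp1*-/- and 7.96, 20.7 and 18.2 in B6J-*Gtpbp2*-/- libraries, had estimates of -0.62 ± 0.39 and -1.37 ± 0.39 (adjusted p 0.239 by edgeR in B6J-*Gtpbp2*-/-), and DESeq2 gave -1.39 with an adjusted p of 0.0483. *Slit1* footprints, at 29.7, 22.2 and 15.9 CPM in B6J, 14.2, 41.1 and 35.3 in B6J.*Gtpbp1*-/- and 16.4, 30.0 and 23.7 in B6J-*Gtpbp2*-/- libraries, overlapped throughout, and its TE estimate in B6J-*Gtpbp2*-/- was -2.46 ± 0.69, adjusted p 0.244 by edgeR and -2.49 with an adjusted p of 0.0134 by DESeq2. Of the brainstem and midbrain markers, 3 of 6 were tested for TE, with a median of -1.79 in B6J-*Gtpbp2*-/- and 0 called, and their part in the *Slit1* estimate was not tested. *Unc5d* TE was -0.70 ± 0.29, adjusted p 0.526, in B6J.*Gtpbp1*-/- and -0.65 ± 0.28, adjusted p 0.378, in B6J-*Gtpbp2*-/-, and *Sema6c* TE 0.71 ± 0.34, adjusted p 0.571, and 0.47 ± 0.33, adjusted p 0.595.

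Between the mutants, edgeR called 0 of 68 members in RNA (0.0595% of all genes), with 10 at an unadjusted p under 0.05 (3.57%) and 1 called by DESeq2 (0.183%). That member was *Robo4*, 8.03, 9.30 and 8.37 CPM in B6J.*Gtpbp1*-/- and 12.3, 13.1 and 14.9 in B6J-*Gtpbp2*-/-, without overlap (-0.65 ± 0.13, adjusted p 0.392 by edgeR; -0.64 ± 0.14, adjusted p 0.00389 by DESeq2). Without a count filter edgeR called it too (-0.65, adjusted p 0.0454). On footprints 0 of 65 were called (0% of all genes), with 4 at an unadjusted p under 0.05 (10.8%) and 0 by DESeq2 (0.707%). For *Sema6b*, *Sema4f* and *Sema5a* the RNA differences were -0.27 ± 0.10, -0.19 ± 0.08 and -0.26 ± 0.11, each with an adjusted p of 1.

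Genes that work beside the members were read as lists, beside 5.90% higher and 7.93% lower of all genes in RNA of B6J.*Gtpbp1*-/- and 3.61% and 5.02% in B6J-*Gtpbp2*-/-; the lists were not tested as sets. Of 17 other guidance ligands and receptors, 2 were called higher and 5 lower in RNA of B6J.*Gtpbp1*-/- (median -0.05) and 1 and 3 in B6J-*Gtpbp2*-/- (0.04). *Dscam*, a netrin receptor, was higher in both (0.40 and 0.55), and *Flrt3*, a ligand of Unc5 receptors, was lower (-0.67 and -0.64). Among 16 genes of semaphorin and plexin signalling 0 were higher and 4 lower in B6J.*Gtpbp1*-/- (median 0.01) and 0 and 3 in B6J-*Gtpbp2*-/- (0.03). These included the plexin effector *Mical2* (-0.94 and -0.93) and the collapsin response mediator *Dpysl4* (-0.94 and -0.86). In Eph and ephrin signalling 5 of 11 were lower in both (medians -0.14 and -0.24), among them *Tiam1* (-0.66 and -0.57). Slit, Robo and netrin signalling had 2 and 1 of 12 lower (medians -0.10 and -0.11). On footprints the B6J.*Gtpbp1*-/- calls in these lists were 1 (*Mical2*, -1.28), and in B6J-*Gtpbp2*-/- 4 of 17, 2 of 16, 1 of 11 and 0 of 12, all lower, beside 0.745% and 2.94% of all genes called in either direction. The genes named from these lists were chosen after their values were seen.

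Since *n-Tr20* reads AGA, the content of this codon was counted in the leading coding transcript of 67 members. *Epha10* and *Robo1* were left out because their leading transcripts have incomplete annotated starts. Members had a median of 7.58 AGA per 1000 codons, beside 10.42 over 16513 genes tested in RNA, and AGA made up a median of 10.9% of their arginine codons, beside 20% over the same genes. Their coding sequences were longer, with a median of 945 codons beside 420. *Sema3d* had the highest content, 27.0 per 1000 codons (chosen after its values were seen), and was not called in either mutant (0.14 and 0.07 in RNA).

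Promoters, 250 bases before to 50 bases after a start site, were matched for 59 of the 69 members, 75 promoters in all, from coordinates credited to RefSeq on GRCm38.p6. The motif TGATGNAA, bound by ATF4, was in 0 of 75, beside 3.97% of 32851 promoters, and GGGCGG in 53 of 75 (70.7%), beside 35.7%. Median GC content was 64.3%, beside 52.7% over all promoters. Of 4 promoters shown, *Sema3c* (chr5:17574566-17574865, plus strand) and *Sema3g* (chr14:31217623-31217922, plus strand) belong to the members called higher in RNA and on footprints. *Ntn4* (chr10:93640799-93641098, plus strand) and *Epha3* (chr16:63864126-63864425, minus strand) were lower in RNA of both mutants in every fit. Capitals mark GGGCGG on either strand, with 3, 1, 4 and 0 matches; a match describes the sequence alone.
Sema3c: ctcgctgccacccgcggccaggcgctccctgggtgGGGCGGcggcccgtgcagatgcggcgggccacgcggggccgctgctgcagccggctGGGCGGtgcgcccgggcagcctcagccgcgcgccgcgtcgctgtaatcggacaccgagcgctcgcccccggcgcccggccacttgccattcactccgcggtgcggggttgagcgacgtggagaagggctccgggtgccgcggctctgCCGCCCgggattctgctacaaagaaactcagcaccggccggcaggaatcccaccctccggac
Sema3g: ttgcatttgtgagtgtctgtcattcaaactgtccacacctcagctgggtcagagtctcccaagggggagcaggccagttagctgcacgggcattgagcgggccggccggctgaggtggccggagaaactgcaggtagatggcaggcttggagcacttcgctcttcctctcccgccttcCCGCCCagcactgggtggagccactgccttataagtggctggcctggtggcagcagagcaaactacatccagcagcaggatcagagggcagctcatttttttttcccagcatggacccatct
Ntn4: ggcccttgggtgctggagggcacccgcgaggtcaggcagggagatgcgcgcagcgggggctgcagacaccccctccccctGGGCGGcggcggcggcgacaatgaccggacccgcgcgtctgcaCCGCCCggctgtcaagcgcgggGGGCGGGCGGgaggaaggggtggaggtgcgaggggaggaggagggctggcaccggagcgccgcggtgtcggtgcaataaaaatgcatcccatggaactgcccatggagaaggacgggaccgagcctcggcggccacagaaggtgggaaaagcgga
Epha3: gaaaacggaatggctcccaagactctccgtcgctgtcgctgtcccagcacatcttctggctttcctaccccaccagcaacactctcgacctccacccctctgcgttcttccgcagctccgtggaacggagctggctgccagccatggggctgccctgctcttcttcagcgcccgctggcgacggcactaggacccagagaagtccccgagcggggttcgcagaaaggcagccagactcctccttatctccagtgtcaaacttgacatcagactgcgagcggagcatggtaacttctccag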

How the data were processed

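RNA sequencing and ribosome profiling of whole cerebellum from 3-week-old B6J, B6J.*Gtpbp1*-/- and B6J-*Gtpbp2*-/- mice were read, with 3 mice per genotype and assay. For RNA the authors deposited an estimated count and a TPM value for each transcript, made with kallisto 0.42.4. For footprints the authors deposited a raw count on the coding sequence of each gene, made with featureCounts after removal of ribosomal RNA reads with Bowtie2 2.2.3 and mapping to mm10 with HISAT2 2.1.0. Both kinds of RNA value were added up per gene, and the summed counts were rounded. Totals were 37794598 to 52114400 counts per RNA library and 3630823 to 10442573 per footprint library.

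Each pair of genotypes was tested with the robust quasi-likelihood test of edgeR 4.0.16 (R 4.3.3), with TMM factors and p-values adjusted by Benjamini-Hochberg, and an adjusted p of 0.05 as the limit. A gene entered when 3 or more of the 6 libraries held 5 or more counts. TE was tested as the interaction of assay and genotype over 12 libraries, with 10 or more counts required in 3 or more of the 6 libraries per assay and Hist-prefixed histone genes left out. The steps were tested on simulated data. Alternatives were DESeq2 1.42.0, upper-quartile scaling, filterByExpr, no filter, all 9 libraries in 1 model, a replicate block, a term for sex, protein-coding transcripts alone, an effective length offset, limma 3.58.1 on counts per effective length (pseudocount 0.5), and leaving out each library. TE had further alternatives: TMM factors computed per assay, a minimum mean count of 1, and all 18 libraries in 1 model. Libraries with *Ddx3y* above 20 CPM were read as male. Tables were made with Python 3.11.15 and pandas 2.3.3.

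Every member called in RNA, on footprints, in TE or between the mutants is given with its values per library, and the most abundant member of each family, as well as any member failing the RNA filter in every comparison, with its level alone. No member failed it in every comparison. The members and lists were chosen with earlier results of these data known. The lists hold markers of granule neurons, granule progenitors and proliferation, Purkinje cells, inhibitory interneurons, unipolar brush cells, astrocytes and Bergmann glia, oligodendrocytes and their precursors, microglia, endothelial and mural cells, meningeal fibroblasts, choroid plexus, skeletal muscle, blood, and brainstem and midbrain neurons. Further lists hold other guidance ligands and receptors, and genes of semaphorin and plexin, Eph and ephrin, and Slit, Robo and netrin signalling. A further list is not reported here. Positions are from Gencode M21 on GRCm38. Codons were counted in the coding transcript of each gene with the highest TPM in B6J. Positions of footprints within a gene were not analysed here.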

Additional observations from a re-analysis of the deposited data

How the results depend on the processing

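The RNA count in B6J.*Gtpbp1*-/- stayed between 16 and 26 members when single libraries were left out, with 8% to 15.8% of all genes called. Other settings gave 19 to 29 members, within a factor of 1.5 of 23, with 8.95% to 17.4% of all genes called. In B6J-*Gtpbp2*-/- the count of 13 depended on the method. It was 30 with DESeq2 (13.7% of all genes), 24 with no filter (7.92%), 20 with all 9 libraries in 1 model (11.6%), 6 with an effective length offset (5.43%) and 6 with limma per effective length (5.41%). It was 5 with a term for sex (4.31%), which here sets aside B6J replicate 2, the only male library. Leaving out single libraries gave 5 to 18, with 3.92% to 9.81% of all genes called, beside 8.63% with every library. On protein-coding transcripts alone the count was 11 and the share 10.8%; the cause was not tested. Between the mutants the RNA count of 0 became 1 with DESeq2 (0.183% of all genes) and 1 with no filter (0.0964%).

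On footprints in B6J.*Gtpbp1*-/- the count of 0 became 4 with DESeq2 (2.91% of all genes) and 1 with all 9 libraries in 1 model (1.45%), and leaving out single libraries gave 0 to 1 (0.159% to 1.34%). In B6J-*Gtpbp2*-/- the count of 2 was 4 with no filter (3.50% of all genes) and 0 with a term for sex (0.326%), which leaves B6J replicate 3 as the only control. Leaving out single libraries gave 0 to 3 (0.779% to 4.54%). The TE count in B6J-*Gtpbp2*-/- was 0 with edgeR and 2 with DESeq2 (1.24% of all genes). A replicate block, which pairs libraries by their number, gave 19 in RNA of B6J.*Gtpbp1*-/- (9.1% of all genes), 14 in B6J-*Gtpbp2*-/- (8.57%) and 0 between the mutants (0.0595%). On footprints it gave 0 (0.315%), 3 (3.7%) and 0 (0.00707%), and for TE 0 and 0 (0% of all genes in both). The numbers need not pair animals: correlations of deviations between libraries of the same number ran from -0.0739 to 0.1171 in RNA, -0.3047 to 0.1235 on footprints and -0.1541 to 0.1185 between the assays. RNA and footprint libraries of the same number also differ in sex for B6J.*Gtpbp1*-/- replicate 2 and B6J replicate 1.

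Over the alternatives and leave-outs, members called in RNA kept their call in 321 of 368 fits in B6J.*Gtpbp1*-/- and 139 of 208 in B6J-*Gtpbp2*-/-, and on footprints in 16 of 26 in B6J-*Gtpbp2*-/-; none reversed. *Sema3c*, *Plxna4*, *Ntn4* and *Epha3* kept it throughout in both RNA comparisons. In B6J.*Gtpbp1*-/- so did *Epha7*, *Nrp2*, *Plxnd1*, *Sema3e*, *Sema4c*, *Sema4d*, *Sema4f*, *Sema5a* and *Sema6b*. With 3 libraries per group and fewer counts on footprints, the absence of a call there does not show the absence of a change.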

Other observations

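*Ddx3y* read 3 of 9 RNA libraries and 3 of 9 footprint libraries as male, none of them from B6J-*Gtpbp2*-/- mice. In the comparison of that mutant with B6J a term for sex rests on the B6J libraries alone and in effect sets the male ones aside. Between the mutants it rests on the B6J.*Gtpbp1*-/- libraries.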
